A study of Mus musculus with 2 samples.

Results

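The 10 genes described here are regulators and markers of T follicular helper (Tfh) cells: the transcription factors Bcl6, Ascl2, Tox and Tox2, the surface proteins Cxcr5, Pdcd1 and Cd200, the adaptor Sh2d1a, and the secreted proteins Il21 and Sostdc1. They were taken as a named list, and all 10 were columns of both count tables, which list 20887 and 20117 genes and 22686 genes together. Each gene was measured as UMIs, unique molecular identifiers that count captured transcripts, in single T cells of mouse spleen. The LatY136F library comes from mice of 8 to 9 weeks with the Y136F point mutation in the adaptor LAT. The other library, labelled LatY136F CD45-KO, comes from mice of the same age that carry the same LAT mutation and are in addition labelled as a knockout of CD45, the phosphatase encoded by Ptprc. Both groups thus share the LAT mutation, and no library from mice with intact LAT was analysed here. The sources used here give neither the number of mice behind a library nor the extent of the CD45 deletion.

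Tfh cells are CD4 T cells that enter B cell follicles and help B cells in germinal centres. Bcl6 is the repressor that defines the lineage, Ascl2 is known to promote Cxcr5 expression and entry into the follicle, and Il21 is the cytokine best known for acting on germinal centre B cells. Several of the 10 genes are not restricted to Tfh cells: Pdcd1, Tox and Cd200 are also induced in chronically stimulated T cells, and Sh2d1a is widely expressed in T cells. LatY136F mice are known for a T helper 2-type lymphoproliferation, which is another helper programme. How far it dominates either library was not measured here.

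The libraries held 35300371 UMIs in 13775 cells (LatY136F) and 29268453 UMIs in 12845 cells (CD45-KO). Kept cells, those with 200 genes or more and no more than 25% mitochondrial counts, were clustered without the 10 genes. The 34 and 116 cells of a cluster with B cell, plasma cell and myeloid markers are called non-T, and the other 13713 and 12718 cells are called T-like. T-like cells had median depths of 2154 and 1986 UMIs. The libraries shared 223 cell indices, and without those cells the counts of genes 1.5-fold higher or lower over T-like cells did not change. Ptprc, the targeted gene, was present at 1760 CPM (UMIs scaled to a common total) over LatY136F T-like cells and 1183 CPM over CD45-KO T-like cells, a log2 ratio of -0.57 (95% interval -0.59 to -0.55). Its transcript was lower but still counted in the library labelled CD45-KO. With 1 library per genotype there is no replicate, no test and no p-value. Every interval is an exact 95% interval for counting error alone, and a ratio between libraries is the log2 of the CD45-KO CPM divided by the LatY136F CPM.

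Over all T-like cells, Cxcr5, Il21 and Sostdc1 were the 3 genes whose CPM was at least 1.5-fold higher in the CD45-KO library, and 0 of 10 were 1.5-fold lower. Of the 12694 genes with at least 20 UMIs over both libraries, 7.85% were 1.5-fold higher and 9.22% lower. The count higher was 6 where cells with over 10% mitochondrial counts were left out, a choice that also moved Tox2 to 0.024. Cxcr5 was below 1.5-fold with the mix of T-like clusters held equal (0.58), Il21 with cells weighted equally (0.57), and Sostdc1 alone passed 2-fold. Of the other 7 genes, Bcl6, Tox and Cd200 were higher by less than 1.5-fold with intervals above 0, Tox2 was lower with its interval below 0, and the intervals of Pdcd1, Sh2d1a and Ascl2 included 0. The plot of CPM by library shows the separation for Cxcr5, Il21 and Sostdc1.

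**Figure D1:**
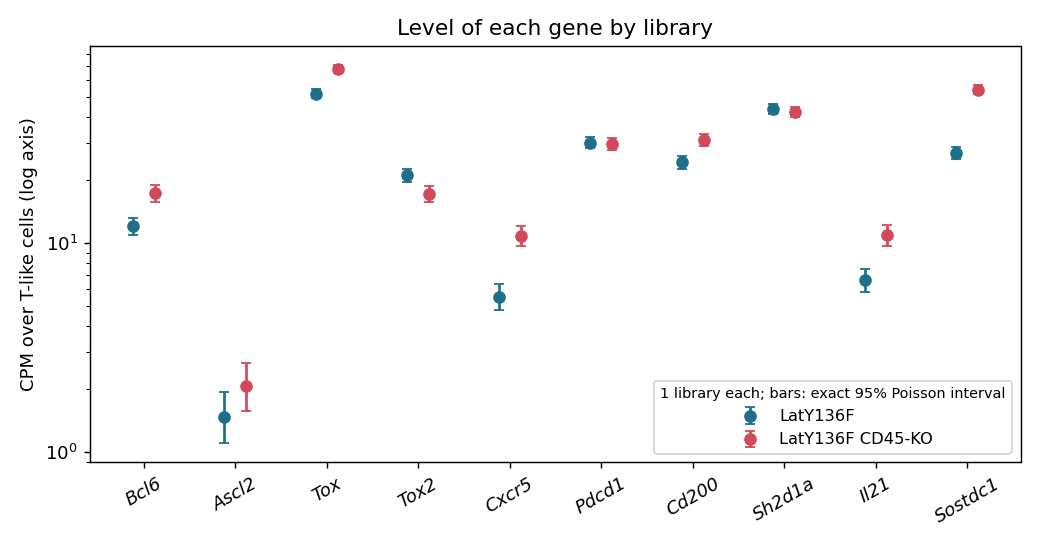
CPM of each of the 10 genes over all T-like cells (log axis), 1 point per library, with exact 95% Poisson intervals as bars. Sostdc1 (27.0 against 54.1 CPM) and Cxcr5 (5.52 against 10.8 CPM) lie apart between the libraries, while the bars of Pdcd1 and Sh2d1a overlap between the libraries.

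Among the transcription factors, Bcl6 (16:23965052-23988852, minus strand, GRCm38) was counted at 12.02 CPM for LatY136F and 17.2 CPM for CD45-KO (422 and 492 UMIs), a log2 ratio of 0.52 (0.33 to 0.71). Ascl2 (7:142966829-142969264) was rare, with 1.48 and 2.07 CPM from 52 and 59 UMIs, and its ratio of 0.48 had an interval from -0.08 to 1.05. A difference in Ascl2 over all T-like cells was not detectable at this depth. Tox (4:6686353-6991557), an HMG-box factor, stood at 51.8 and 68.0 CPM, a ratio of 0.39 (0.30 to 0.49). Its relative Tox2 (2:163203125-163324170) went the other way, with 21.1 and 17.1 CPM and a ratio of -0.30 (-0.47 to -0.13). The 2 related factors therefore differed in direction between the libraries.

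Because Bcl6 is the defining regulator and Il21 the defining cytokine of the list, the sequences before their start sites are shown with letters of motifs that STAT and NFAT proteins are known to bind. RefSeq promoter windows (GRCm38.p6) were at hand for 6 of the 10 genes. The Bcl6 windows below are on the minus strand, at chr16:23988853-23988972 directly before the start of the gene and at chr16:23981284-23981463 before a second start site inside the gene. The Il21 window is at chr3:37232637-37232846, also on the minus strand. Capitals mark the STAT-type palindrome TTCNNNGAA in Bcl6, and GGAAA or its complement TTTCC, the core of NFAT motifs, in Il21.
Bcl6, first start: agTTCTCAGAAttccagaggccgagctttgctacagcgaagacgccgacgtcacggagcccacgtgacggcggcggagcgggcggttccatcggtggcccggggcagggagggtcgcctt
Bcl6, second start: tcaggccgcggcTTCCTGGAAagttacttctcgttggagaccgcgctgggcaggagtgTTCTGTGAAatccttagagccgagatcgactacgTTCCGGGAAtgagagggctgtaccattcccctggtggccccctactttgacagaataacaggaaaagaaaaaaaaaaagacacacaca
Il21: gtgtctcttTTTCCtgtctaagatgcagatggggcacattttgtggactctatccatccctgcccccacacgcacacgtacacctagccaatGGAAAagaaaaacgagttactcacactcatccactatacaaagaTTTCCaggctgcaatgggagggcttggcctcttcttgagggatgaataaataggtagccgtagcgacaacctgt

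The palindrome TTCNNNGAA, which reads the same on both strands, occurred 1 time before the first Bcl6 start and 3 times before the second. Over 32851 RefSeq promoter windows of 250 bases, 7.02% held it at least 1 time, and 9 windows (0.0274%) held 3 or more. GGAAA on either strand occurred 3 times before Il21, and 6.39% of all windows held at least 3. The E-box CAGCTG was in none of the windows of the 6 genes on either strand, against 13.0% of all windows. The same held for the AP-1 letters TGANTCA (6.75% of all windows) and for CTTTGAA (4.46% of all windows). A search for CTTTGAT found it in 2 overlapping Tox2 windows (3.21% of all windows). A match describes letters and no measured binding,.

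Among the surface proteins, Cxcr5 (9:44511787-44561877), the receptor for the follicular chemokine Cxcl13, was counted at 5.52 CPM (194 UMIs) and 10.8 CPM (308 UMIs), a ratio of 0.97 (0.70 to 1.23). Cxcr5 overlaps Bcl9l on the opposite strand, which had 10180 UMIs over both libraries, and whether the counting used strand is not stated by the submitters, so reads of the 2 genes may not be fully separated. Pdcd1 (1:94038305-94052553), which encodes the inhibitory receptor PD-1, stood at 30.1 and 29.8 CPM, a ratio of -0.01 (-0.14 to 0.12). Cd200 (16:45382135-45409053), the ligand of the inhibitory receptor CD200R, stood at 24.3 and 31.2 CPM, a ratio of 0.36 (0.23 to 0.50).

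Sh2d1a (X:42502453-42529330) encodes the adaptor SAP, which passes signals of SLAM receptors and is needed for stable contact between Tfh and B cells. It was counted at 43.7 and 42.5 CPM, a ratio of -0.04 (-0.15 to 0.07) over all T-like cells. This interval covers counting error alone, so it sets no bound on a difference between the genotypes. Under other processing choices the Sh2d1a ratio ranged from -0.18 to 0.092. For the secreted proteins, Il21 (3:37222759-37232636) stood at 6.63 and 10.9 CPM (233 and 310 UMIs), a ratio of 0.71 (0.46 to 0.96). Sostdc1 (12:36314139-36318452), an antagonist of BMP and Wnt signals that Tfh cells secrete, stood at 27.0 and 54.1 CPM (949 and 1543 UMIs), a ratio of 1.00 (0.88 to 1.12). Sostdc1 differed from the other 9 genes in how its UMIs were spread over cells. A cell with Sostdc1 held on average 4.70 UMIs of it for LatY136F and 5.98 for CD45-KO, up to 26 and 23 in a cell. For the other genes this mean lay between 1.24 and 2.04 UMIs.

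Each gene was detected in a minority of T-like cells. The share with a UMI ran from 0.263% and 0.322% for Ascl2 to 9.55% and 10.04% for Tox (LatY136F and CD45-KO). Thinned to 1000 UMIs per cell, which left out 430 and 357 shallower cells, Cxcr5 was found in 0.301% of LatY136F cells (0.215 to 0.410) and 0.704% of CD45-KO cells (0.564 to 0.867). Thinned Sostdc1 shares were 0.949% and 1.49%, with intervals that did not overlap (0.791 to 1.13 and 1.28 to 1.72). For Pdcd1 the thinned shares were 2.02% and 1.81% with overlapping intervals, although the unthinned shares were 5.01% and 3.60%.

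These shares over all T-like cells cannot be read as expression by themselves. In the non-T cells, with median depths of 3337 and 5582.5 UMIs, unthinned shares were 5.88% and 5.17% for Pdcd1, 2.94% and 4.31% for Cxcr5, 2.94% and 2.59% for Sostdc1 and 5.88% and 11.2% for Tox. Most of these lie at or above the unthinned shares over T-like cells, whose median depths were lower. After thinning, Pdcd1, Cxcr5, Sostdc1 and Tox were found in 0 of 30 LatY136F non-T cells. Thinned shares in CD45-KO non-T cells were 0.877% for Pdcd1, 0.877% for Sostdc1 and 1.75% for Tox. These lay below the thinned T-like shares of 1.81%, 1.49% and 4.97%. The thinned Cxcr5 share of 0.877% lay above the 0.704% of T-like cells. The thinned non-T shares rest on few cells. Bcl6, which germinal centre B cells also express, was found in 7 of 34 and 23 of 116 non-T cells. Il21 was found in 0 of 34 non-T cells, which allows a share of up to 10.3%, and in 1 of 116. The levels by cluster below differ beyond counting error between T-like clusters, and the results rest on those differences.

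The clusters were built without the 10 genes, so the genes did not shape them. The cluster called Tfh-like held 372 LatY136F cells (2.71% of kept cells) and 438 CD45-KO cells (3.41%). It was named from 7 of 13 Tfh markers outside the list: Icos, Btla, Izumo1r, Pou2af1, Angptl2, Gpm6b and Tbc1d4. Slamf6, Maf, Cd40lg, Batf, Id3 and Tcf7 did not pass the naming rule there. The Tfh-like cluster also carried the regulatory T cell markers Ikzf2, Il2ra and Ctla4. Foxp3 was found in 2 LatY136F cells and 0 CD45-KO cells of it, and in 0.722% and 0.228% of all T-like cells, too few for a comparison. Sostdc1, Cxcr5 and Il21 were among its 10 leading genes by fold, beside Vwde, Edn3, Cd109, Akr1c18, Rgs16, Slc17a6 and Lpar3.

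For 9 of the 10 genes, the Tfh-like cluster had the highest CPM of all T-like clusters in both libraries, with an interval apart from that of the next cluster. Sh2d1a was the exception. It stood at 204 CPM (152 to 268) in cluster 10, led by Ccl5, Gzmk and Nkg7, and 146 CPM (127 to 169) in the Tfh-like cluster of the LatY136F library. In the CD45-KO library the order was 163 CPM (129 to 204) and 208 CPM (186 to 233), and the intervals overlapped in both libraries. The heat map of levels by cluster shows Sh2d1a and Tox spread over many clusters, and Ascl2, Il21 and Sostdc1 concentrated in the Tfh-like cluster.

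**Figure D2:**
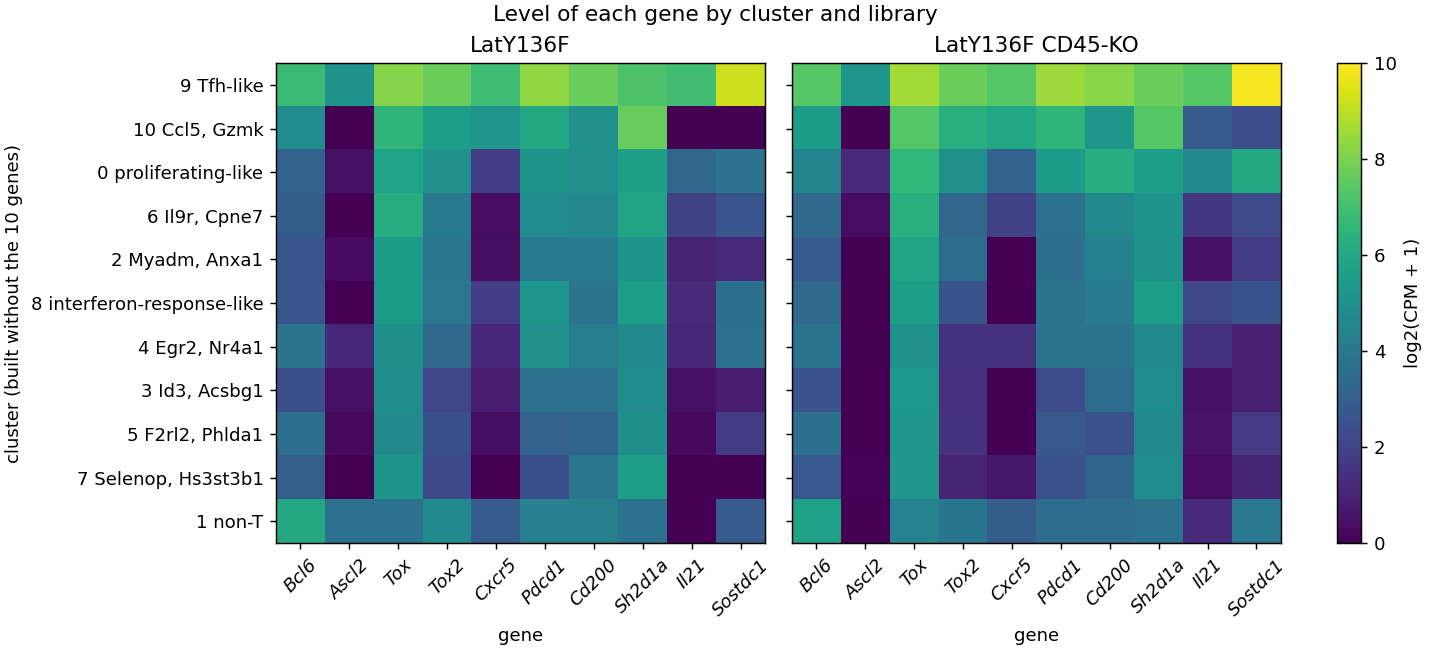
Level of the 10 genes (columns) in the 11 clusters (rows), as log2(CPM + 1), in the LatY136F library (left) and the CD45-KO library (right); clusters are labelled with their name or 2 leading genes. The Tfh-like row is the brightest for 9 of the 10 genes in both panels, and Sh2d1a and Tox are visible in every row.

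The share of UMIs in the Tfh-like cluster differed between the genes. Of all Sostdc1 UMIs in T-like cells, 84.6% (LatY136F) and 90.5% (CD45-KO) lay in that cluster. The shares were 84.6% and 93.2% for Ascl2, 82.0% and 79.9% for Cxcr5, and 69.1% and 80.3% for Il21. Pdcd1 (41.2% and 65.6%), Tox2 (38.8% and 65.2%), Bcl6 (35.5% and 51.6%) and Cd200 (32.6% and 49.8%) were intermediate. Tox (21.5% and 30.1%) and Sh2d1a (12.7% and 25.7%) lay mostly outside it. This share was larger in the CD45-KO library for 9 of the 10 genes, all except Cxcr5.

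Within the Tfh-like cluster, 9 of the 10 genes had a ratio above 0 between the libraries. Bcl6 and Sostdc1 were 1.5-fold higher in the CD45-KO library and 0 of 10 were 1.5-fold lower, where 10% of 9014 genes were higher and 7.17% lower. Sostdc1 stood at 603 and 936 CPM, a ratio of 0.63 (0.51 to 0.76). Bcl6 stood at 113 and 170 CPM, a ratio of 0.60 (0.30 to 0.90). Cxcr5 (119 and 165 CPM, 0.47), Il21 (121 and 167 CPM, 0.47), Cd200 (209 and 298 CPM, 0.51), Sh2d1a (146 and 208 CPM, 0.51) and Tox (294 and 392 CPM, 0.42) were higher by less than 1.5-fold, with intervals above 0. Pdcd1 (327 and 374 CPM) had a ratio of 0.20 (0.01 to 0.38), and Tox2 was nearly level at 216 and 214 CPM, -0.02 (-0.25 to 0.22). The Tox2 difference over all T-like cells was not seen within the cluster that held the most Tox2.

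In the T-like cells outside the Tfh-like cluster, Pdcd1 and Tox2 were lower in the CD45-KO library. Pdcd1 stood at 18.4 and 10.8 CPM, a ratio of -0.76 (-0.97 to -0.56), and Tox2 at 13.4 and 6.29 CPM, a ratio of -1.10 (-1.36 to -0.84). Of the 9 genes with at least 20 UMIs there, these 2 were 1.5-fold lower and Cxcr5 was 1.5-fold higher. Of all genes there, 7.49% were higher and 9.8% lower. Cxcr5 stood at 1.04 and 2.29 CPM (35 and 62 UMIs), a ratio of 1.15 (0.53 to 1.79). Cluster 10, described below, gave 9 and 30 of these UMIs, from 7 and 10 cells. With cluster 10 left out as well, the Cxcr5 ratio was 0.64 (-0.16 to 1.44). Over all T-like cells outside the Tfh-like cluster, Sh2d1a stood at 39.7 and 33.3 CPM, a ratio of -0.25 (-0.38 to -0.13). Tox stood there at 42.3 and 50.1 CPM, a ratio of 0.25 (0.14 to 0.35). The makeup of these cells also differed: a cluster led by Selenop and Hs3st3b1 held 41.5% of CD45-KO cells and 3.97% of LatY136F cells, and one led by F2rl2 and Phlda1 held 8.31% and 32.1%. Their part in the Pdcd1 and Tox2 values was not tested.

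The proliferating-like cluster, with 10 of 10 markers of proliferating cells, held 779 and 201 cells. There 6 of 9 genes with at least 20 UMIs were 1.5-fold higher in the CD45-KO library, against 7.8% of all genes, and 0 were lower, against 7.28%. Sostdc1 stood at 12.9 and 66.2 CPM, a ratio of 2.36 (1.91 to 2.83), Il21 at 8.76 and 26.5 CPM, 1.60 (0.95 to 2.24), and Cd200 at 31.5 and 74.8 CPM, 1.25 (0.89 to 1.60). The 100 Sostdc1 UMIs of the CD45-KO cells came from 11 cells, so the level rests on few cells. Bcl6 (7.82 and 21.2 CPM), Cxcr5 (2.61 and 7.94 CPM) and Tox (55.0 and 96.6 CPM) were the other 3, while Pdcd1, Tox2 and Sh2d1a had intervals that included 0.

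Cluster 10, led by Ccl5, Gzmk and Nkg7, held 103 and 180 cells and carried some of the genes without the others. Sh2d1a, Tox (91.8 and 165 CPM), Cxcr5 (35.9 and 62.8 CPM) and Tox2 (47.9 and 77.5 CPM) were present. Sostdc1 had 0 and 2 UMIs, Il21 0 and 3 UMIs and Ascl2 0 and 0 UMIs. A count of 0 allows up to 14.7 CPM for LatY136F and 7.73 CPM for CD45-KO. The cluster led with cytotoxic and T-bet programme genes and stayed unnamed, although 3 Tfh markers outside the list passed its marker rule. Among its 7 genes with at least 20 UMIs, 4 were 1.5-fold higher in the CD45-KO library (13.7% of all genes there; 0 lower, 11% of all genes), and Tox was the only one of these whose interval lay above 0 (0.16 to 1.59).

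The genes were next counted together in each cell. No gene of the 10 was found in 75.6% of LatY136F and 78.9% of CD45-KO T-like cells. Exactly 1 was found in 18.1% and 16.1% (median depth 2446.5 and 2122 UMIs), and exactly 2 in 3.73% and 2.25% (median depth 3148 and 2563 UMIs). Cells with 4 or more made up 1.44% (1.24 to 1.65) and 2.05% (1.81 to 2.31), and the fullest cell of each library held all 10. Thinned to 1000 UMIs, cells with exactly 2 made up 1.26% (1.07 to 1.46) and 1.18% (0.998 to 1.39), with overlapping intervals, and cells with 4 or more 0.324% (0.234 to 0.436) and 0.671% (0.535 to 0.832), with intervals apart.

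Cells with 2 or more of the genes are called the class below. It held 862 LatY136F cells (6.29%, 5.89 to 6.71) and 633 CD45-KO cells (4.98%, 4.61 to 5.37). Thinned to 1000 UMIs, 275 of 13283 LatY136F cells (2.07%, 1.83 to 2.33) and 312 of 12361 CD45-KO cells (2.52%, 2.25 to 2.82) were in the class, a fold of 1.22 (1.03 to 1.44). The interval of this fold included 1 at 1500 UMIs (1.13, 0.981 to 1.31), without the 2% of cells with the most UMIs (1.15, 0.966 to 1.37) and without Il21 in the list (1.18, 0.996 to 1.39). Membership went with depth: between 1000 and 2000 UMIs, 1.71% and 1.75% of cells were in the class, and above 8000 UMIs 47.9% and 48.2%. Class cells had median depths of 3505.5 and 3039 UMIs, the other T-like cells 2106 and 1959. The unthinned share moved with depth, and no order is read from it.

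**Figure D3:**
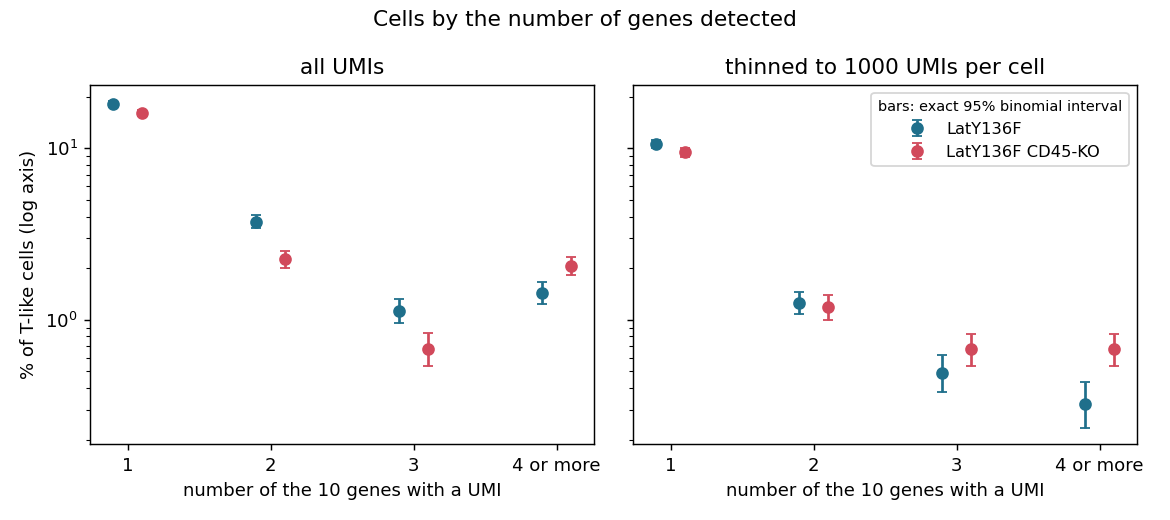
Share of T-like cells (log axis) in which 1, 2, 3 or 4 or more of the 10 genes had a UMI, with all UMIs (left) and with each cell thinned to 1000 UMIs (right); points are the 2 libraries and bars exact 95% binomial intervals. After thinning, 4 or more genes were found in 0.324% of LatY136F and 0.671% of CD45-KO cells, with intervals apart, while the points for exactly 2 genes overlap.

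Pairs of the genes were found in the same cell more often than their separate shares multiply to. In thinned cells, 26 of the 45 pairs had a product of at least 1 cell in both libraries, and for all 26 the number of cells with both genes was above the product, with an interval above 1 for the ratio, in both libraries. The other 19 pairs had a product under 1 cell in at least 1 library and were left out of that count. Some of them still shared many cells. Cxcr5 and Sostdc1 were together in 20 LatY136F and 44 CD45-KO cells, where the products were 0.379 and 1.30. Bcl6 and Ascl2 shared 0 LatY136F cells, as did Sh2d1a and Ascl2. Tox2 and Sostdc1 shared 38 LatY136F cells where the product was 1.68, and 44 CD45-KO cells where it was 1.76. Pdcd1 and Sostdc1 shared 41 and 67 cells where the products were 2.54 and 3.33. The lowest ratios of the 26 belonged to Tox and Sh2d1a, with 39 cells against 22.4 and 47 against 20.6, which are 1.74 and 2.28 times the product. Each cell in these counts held 1000 UMIs.

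To measure each gene in cells picked without it, its level was taken in T-like cells with 2 or more of the other 9 genes. All 10 genes were higher inside those cells than outside in both libraries, by more than 1.5-fold; of the genes outside the list, 15.6% (LatY136F) and 19.3% (CD45-KO) were 1.5-fold higher inside the class. Sostdc1 and Sh2d1a stood at opposite ends in the LatY136F library. Sostdc1 stood at 221 CPM inside and 2.44 CPM outside in the LatY136F library, and at 618 and 2.98 CPM in CD45-KO cells, which are log2 ratios of 6.50 (6.16 to 6.86) and 7.69 (7.37 to 8.04). Cxcr5 stood at 43.8 inside and 0.579 CPM outside, and at 118 and 0.957 CPM, ratios of 6.24 and 6.94. Sh2d1a stood at 116 and 37.0 CPM, and at 190 and 31.0 CPM, ratios of 1.65 (1.48 to 1.83) and 2.61 (2.44 to 2.79). For Ascl2, 46 UMIs lay inside and 6 outside in LatY136F cells, and 58 inside and 1 outside in CD45-KO cells.

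**Figure D4:**
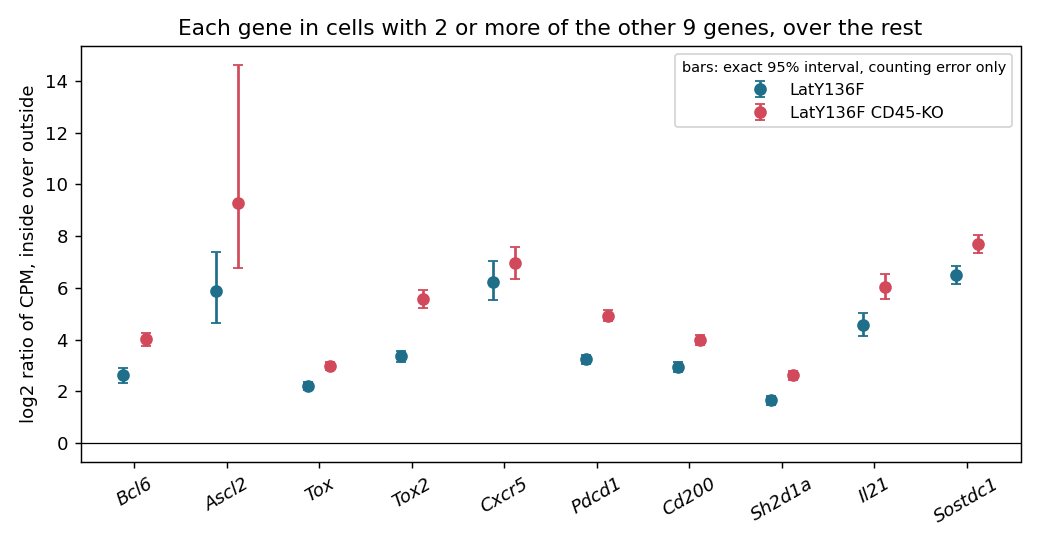
Log2 ratio of the CPM of each gene in T-like cells with 2 or more of the other 9 genes over all other T-like cells, 1 point per library, with exact 95% intervals for counting error. All points lie above 0, from 1.65 for Sh2d1a to 6.50 for Sostdc1 in LatY136F cells, and Ascl2 in CD45-KO cells has a wide bar because 1 UMI lay outside.

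The share of cells with a gene that also held another of the list gives the same picture per cell. Of the cells with Cxcr5, 93.5% (LatY136F) and 92.1% (CD45-KO) were in the class, and of those with Ascl2, 83.3% and 97.6%. For Il21 the shares were 80.3% and 89.9%, and for Sostdc1 79.7% and 87.98%. Of the cells with Tox, 40.5% and 34.0% were in the class, and of those with Sh2d1a, 35.9% and 34.3%. Most cells with Tox or Sh2d1a thus showed no other gene of the list at this depth.

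Inside and outside these cells, the libraries differed in opposite directions for some genes. Inside, all 10 genes were at least 1.5-fold higher in the CD45-KO library, each in its own set of cells. In the class, picked with all 10 genes, Tox2 (0.37) and Sh2d1a (0.50) were higher by less than 1.5-fold and the other genes by more. Of all genes, 11.4% were 1.5-fold higher and 7.64% lower inside the class. Outside the sets picked without each gene, Pdcd1 and Tox2 were 1.5-fold lower and Cxcr5 1.5-fold higher with an interval that included 0. Outside the class, 7.26% of all genes were higher and 9.23% lower. The values that follow are for the sets picked without each gene. Pdcd1 stood at 156 and 281 CPM inside, a ratio of 0.85 (0.68 to 1.02), and at 16.6 and 9.29 CPM outside, -0.83 (-1.06 to -0.61). Tox2 stood at 111 and 169 CPM inside, 0.61 (0.40 to 0.81), and at 10.9 and 3.59 CPM outside, -1.60 (-1.94 to -1.26). Sh2d1a stood at 116 and 190 CPM inside, 0.71 (0.50 to 0.92), and at 37.0 and 31.0 CPM outside, -0.25 (-0.38 to -0.13).

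**Figure D5:**
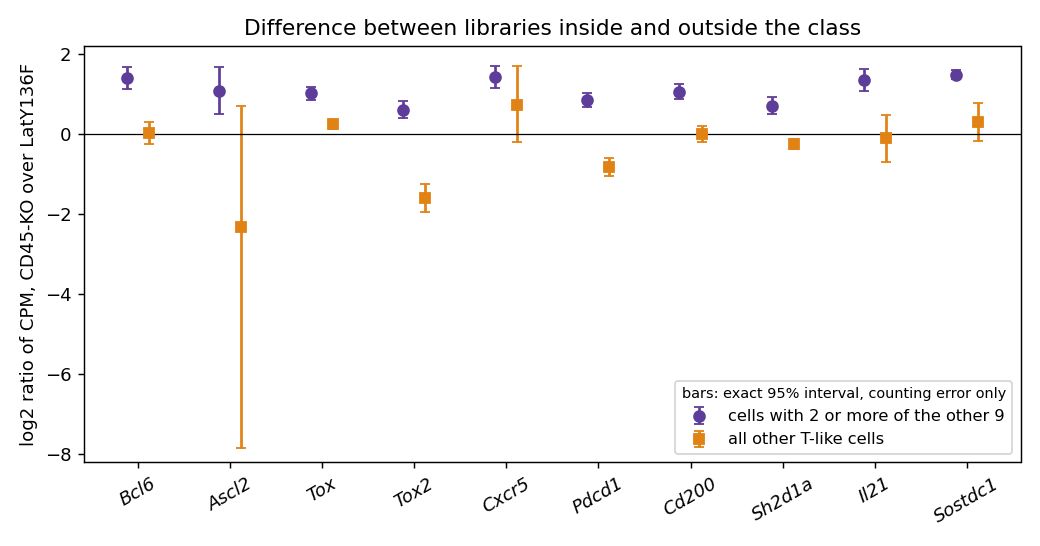
Log2 ratio of CPM, CD45-KO over LatY136F, for each gene in T-like cells with 2 or more of the other 9 genes (circles) and in all other T-like cells (squares), with exact 95% intervals for counting error. All circles lie above 0, from 0.61 (Tox2) to 1.48 (Sostdc1), and the squares of Pdcd1, Tox2 and Sh2d1a lie below 0 with intervals that do not reach it.

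The makeup of the class moved with these ratios. The Tfh-like cluster held 26.9% of the LatY136F class and 51.7% of the CD45-KO class (53.5% and 73.4% after thinning), and the proliferating-like cluster, with median depths of 5973 and 6309 UMIs, held 22.0% and 9.00%. Within the Tfh-like cluster the ratios between libraries were smaller than in cells with 2 or more of the other 9 genes, for all 10 genes, for example 0.20 against 0.85 for Pdcd1 and 0.16 against 1.08 for Ascl2. In the class itself, picked with all 10 genes, the Sh2d1a ratio was 0.50, close to its 0.51 in the Tfh-like cluster. In the class outside the Tfh-like cluster (630 and 306 cells), Cxcr5 (8.91 and 39.9 CPM) and Bcl6 (31.2 and 72.7 CPM) were higher in the CD45-KO library. So were Sostdc1 (34.0 and 93.4 CPM) and Tox (171 and 294 CPM), while Tox2 was level (87.1 and 86.2 CPM). These cells were picked by UMIs of the same 10 genes, at median depths of 3476.5 and 2744 UMIs. Their levels are thus no separate measure of a difference. Of the Tfh-like cluster, 62.4% of LatY136F and 74.7% of CD45-KO cells were in the class, and 39.7% and 52.9% after thinning.

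Other cell types were counted in the class by their markers. The 10 B cell markers summed to 253 CPM inside and 111 CPM outside in the LatY136F library, and to 207 and 82.4 CPM in the CD45-KO library. Inside the LatY136F class, Ms4a1 was at 0. The 10 markers of proliferating cells summed to 3670 and 1181 CPM, and to 2206 and 468 CPM. The 9 NK cell markers summed to 113 and 112 CPM in the LatY136F library, and to 199 and 63.2 CPM in the CD45-KO library. Ncr1 was at 0 inside both classes. Eomes, counted among these markers, stood at 25.2 CPM inside the LatY136F class and 112.8 CPM inside the CD45-KO class. Outside, it stood at 19.9 and 22.5 CPM. The sum inside the CD45-KO class thus rests largely on Eomes and is no count of NK cells. Doublets were not removed, and the part of other cell types in the class values was not tested.

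By coreceptor, cells with a Cd4 UMI and no Cd8 UMI numbered 9095 and 8394, and cells with a Cd8 UMI alone 23 and 25. The class made up 7.94% and 6.14% of the Cd4 cells, and 2.66% and 3.08% after thinning. Of the cells with neither coreceptor, 2.82% and 2.54% were in the class (0.844% and 1.31% after thinning), at lower median depths of 1848 and 1790 UMIs. Cxcr5 stood at 7.14 and 13.1 CPM in Cd4 cells and at 1.20 and 4.70 CPM in cells with neither. Cells with a Trdc UMI (570 and 215) held Sostdc1 at 43.5 and 35.8 CPM, from 13 and 2 cells.

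Cells with an Il21 UMI numbered 122 and 168. Among them, Il4, the cytokine shared by Tfh and T helper 2 cells, was found in 35.2% (26.8 to 44.4) and 36.9% (29.6 to 44.7), against 6.04% and 4.99% of all T-like cells. Cxcr5 was found in 25.4% and 31.0% of them, against 0.780% and 1.19%. Icos, a costimulatory receptor of Tfh cells, was found in 83.6% and 87.5%, against 57.5% and 41.5%. Foxp3 was found in 0 of the 122 and 0 of the 168 cells. This allows shares with a UMI of up to 2.98% and 2.17%, above the 0.722% and 0.228% of all T-like cells. Il4 and Cxcr5 UMIs were thus more frequent in cells with Il21 in both libraries, with shares not matched for depth.

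Genes outside the list were then compared inside and outside the class within each library. The 10 leading genes were Vwde, Npnt, Cd109, Edn3, Angptl2, Rgs16, Nrgn, Tshz2, Pou2af1 and Akr1c18, ranked from 2507 genes. Nrgn, a calmodulin-binding protein, stood at 780 CPM inside and 37.4 CPM outside in the LatY136F library, and at 597 and 10.5 CPM in the CD45-KO library. Akr1c18, which inactivates progesterone, stood at 232 and 11.8 CPM, and at 476 and 15.02 CPM. Pou2af1, a coactivator of octamer-binding factors, stood at 36.8 and 1.48 CPM, and at 74.0 and 1.69 CPM. Rgs16, which shortens signals of chemokine receptors, stood at 39.3 and 1.38 CPM, and at 125 and 1.07 CPM. The ratios of all 10 were 4.30 or more in the LatY136F library and 4.99 or more in the CD45-KO library.

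The 6 lowest genes inside the class were Il1rl1, Pltp, Pdzk1, Jag1, Itgae and Ccr2. Il1rl1, the receptor for IL-33 and a T helper 2 marker, stood at 166 CPM inside and 590 CPM outside in LatY136F cells, and at 158 and 726 CPM in CD45-KO cells, ratios of -1.83 and -2.20. Ccr2, a chemokine receptor of effector cells, stood at 245 and 754 CPM, and at 303 and 1090.1 CPM. Itgae, an integrin that binds E-cadherin, stood at 44.2 and 152 CPM, and at 22.7 and 107 CPM. These genes were lower inside the class in both libraries after thinning as well.

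Since class cells were deeper than the others, each list below is also given with the class and its counts taken from cells thinned to 1000 UMIs. In that comparison 26% of genes were 1.5-fold higher and 15.3% lower in LatY136F cells (median 0.10), and 27.2% and 15.6% in CD45-KO cells (median 0.12). Of 20 further genes known from Tfh cells, 12 were 1.5-fold higher and 2 lower inside the LatY136F class (median log2 ratio 0.87). Of all genes, 15.6% were higher and 9.85% lower there (median 0.02). In the CD45-KO library 16 of the 20 were higher and 2 lower (median 1.95). There 19.3% of all genes were higher and 11.6% lower (median 0.07). Thinned, 15 and 18 of the 20 were higher and 2 and 2 lower (medians 1.92 and 2.30). Cd160, an inhibitory receptor, stood at 1.93 CPM outside and 40.3 CPM inside, and at 1.65 and 94.6 CPM. Angptl2 stood at 1.16 and 36.8 CPM, and at 0.498 and 56.2 CPM. Gpr183, a receptor for oxysterols, and Id3 were the 2 lower genes in both libraries. Gpr183 is also counted among the Bcl6-repressed genes below.

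Of 21 inducers and receptors of the Tfh programme, 4 were higher and 1 lower in the LatY136F library (median -0.06), and 7 higher and 2 lower in the CD45-KO library (median 0.33), where the share in LatY136F cells was near the 15.6% of all genes. Thinned, 8 were higher and 2 lower (median 0.35), and 10 higher and 3 lower (median 0.48), so the LatY136F median turned sign. Il6st, Tcf7, Pou2af1 and Nfatc1 were higher in both libraries with and without thinning. Tcf7, a factor upstream of Bcl6, stood at 155 CPM outside and 248 CPM inside in the LatY136F library. Of the SLAM family and SAP pathway, which Sh2d1a serves, 3 of 13 and 5 of 12 genes were higher and 1 and 0 lower, where 15.6% and 19.3% of all genes were higher and 9.85% and 11.6% lower. Thinned, 3 of 12 and 6 of 12 were higher and 0 and 2 lower. Ptpn11, which encodes the phosphatase SHP2, stood at 58.9 and 119 CPM, and at 60.5 and 182 CPM.

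Genes known to be repressed by Bcl6, which govern migration and cytokine signals, were mostly lower inside the class. Of 14 such genes measured, 0 were higher and 8 lower in the LatY136F library (median -0.79), and 1 was higher and 12 lower in the CD45-KO library (median -1.09). Thinned, 1 was higher and 11 lower (median -0.91), and 1 higher and 13 lower (median -1.46). Il7r, the receptor for IL-7, stood at 1384 CPM outside and 576 CPM inside in LatY136F cells. Socs3, a suppressor of cytokine signals, stood at 88.1 and 42.5 CPM, and at 72.4 and 19.8 CPM, but was not 1.5-fold lower in thinned LatY136F cells. Selplg, a selectin ligand that Tfh cells lose, stood at 654 and 339 CPM in the LatY136F library. Prdm1, the antagonist of Bcl6, stood at 47.5 and 40.5 CPM, a ratio of -0.23 (-0.47 to 0.005), and at 31.8 and 22.3 CPM, -0.51 (-0.93 to -0.11), and was 1.5-fold lower in both libraries when thinned.

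Genes that oppose the Tfh programme or mark other helper fates were mostly lower at equal depth. In the LatY136F library 4 of 20 were higher and 7 lower (median -0.22), and in the CD45-KO library 5 of 19 were higher and 8 lower (median -0.55). Thinned, 1 of 18 was higher and 10 lower (median -0.71), and 4 of 19 were higher and 11 lower (median -1.30). Il2ra, the IL-2 receptor alpha chain, stood at 48.4 CPM outside and 124 CPM inside, and at 19.7 and 88.8 CPM, and was not among the higher genes of thinned LatY136F cells. Klf2, which maintains quiescence and egress, stood at 806 and 417 CPM, and at 888 and 291 CPM. Gata3 was lower in both libraries.

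Of 15 exhaustion and inhibitory receptor genes, 7 were higher and 1 lower inside the LatY136F class (median 0.47), and 11 higher and 1 lower inside the CD45-KO class (median 1.27). Thinned, 9 of 14 and 10 of 14 were higher and 3 and 2 lower (medians 0.95 and 1.88). Lag3 stood at 5.76 CPM outside and 54.8 CPM inside, and at 1.95 and 79.3 CPM. Bhlhe40 stood at 7.27 and 48.2 CPM, and at 9.96 and 93.0 CPM. Entpd1 was lower in both libraries with and without thinning. Of the regulatory T cell genes, 6 of 11 and 5 of 9 were higher and 0 and 1 lower, and thinned 4 of 10 and 6 of 9 were higher and 0 and 0 lower. Ikzf2, which encodes Helios, stood at 14.3 and 90.9 CPM, and at 64.1 and 227 CPM, while Foxp3 stood at 6.15 and 7.66 CPM, and at 2.61 and 1.65 CPM, with both intervals of its ratio including 0. In CD45-KO cells Foxp3, with 4 UMIs inside the class, was the gene counted lower without thinning and was counted higher with it, so no direction is read.

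Among T helper 2 genes, Il4 stood at 26.0 CPM outside and 119 CPM inside, and at 20.9 and 150 CPM. Il4, Areg and Il17rb were 1.5-fold higher inside in both libraries with and without thinning. Il13 and Ccr8 were higher as well, but were not among the higher genes of thinned CD45-KO cells. Il1rl1, Gata3, Il4ra and Nfil3 were 1.5-fold lower in both libraries with and without thinning. By counts, 5 of 14 were higher and 4 lower in the LatY136F library (median -0.13), and 5 higher and 6 lower in the CD45-KO library (median -0.25). Thinned, 5 of 14 and 3 of 12 were higher and 5 and 7 lower (medians -0.21 and -0.76). Early receptor-induced genes split as well, with 3 of 17 and 5 of 17 higher and 7 and 8 lower (medians -0.44 and -0.55), and thinned 4 of 16 and 5 of 17 higher and 8 and 9 lower (medians -0.57 and -0.70). Nr4a3 and Egr2 were higher and Fos, Fosb, Jun, Ier2 and Tnfaip3 lower in both libraries with and without thinning. Cell cycle genes were higher for 18 of 18 and 17 of 18, with medians of 1.56 and 2.19. Thinned, 3 and 10 of 18 were higher and 1 and 3 lower, with medians of 0.25 and 1.01. That list moved with depth, and its part in the class values was not tested.

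The Tfh-like cluster held 26.9% of the LatY136F class and 51.7% of the CD45-KO class. The part of this makeup in the differences between the libraries inside the class was not tested. Between the libraries, inside the class, 8 of the 20 further Tfh genes were 1.5-fold higher in the CD45-KO library and 0 lower (median 0.38). Of all genes, 11.4% were higher and 7.64% lower there (median 0.05). Outside the class 1 of the 20 was higher and 4 lower (median -0.13), where 7.26% of all genes were higher and 9.23% lower (median 0.02). Inside, Rgs16 stood at 39.3 and 125 CPM, a ratio of 1.67 (1.39 to 1.95), and Tbc1d4 at 366 and 936 CPM, 1.35 (1.26 to 1.45). Tbc1d4 was also higher outside, at 54.3 and 118 CPM, while Gpm6b was lower outside, at 38.0 and 11.3 CPM. Inside the class the T helper 2 list held 0 of 14 higher and 7 lower (median -0.52), and outside it 0 higher and 8 lower (median -0.63). The same direction held in both for that list, and the difference between inside and outside was not tested.

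The genes that were highest in the CD45-KO library inside the class were Ifi208, Xcl1, Iigp1, Slc17a6, Spp1 and Eomes. Slc17a6 was among the 10 leading genes of the Tfh-like cluster, and Eomes among those of cluster 10. Cluster 10 held 2.32% of the LatY136F class and 5.21% of the CD45-KO class. The part of the makeup of the class in these values was not tested. Xcl1, a chemokine for cross-presenting dendritic cells, stood at 16.5 and 135 CPM inside. Slc17a6, a glutamate transporter, stood at 25.2 and 129 CPM inside, a ratio of 2.36 (2.03 to 2.69), and at 1.29 and 1.26 CPM outside, -0.03 (-0.74 to 0.68). Ifi208 was higher in the CD45-KO library inside (6.67 and 67.8 CPM) and outside (17.1 and 102 CPM). The lowest were Anxa2, Tnfrsf8, Lgals3, Cmtm7, Camk2b and Ndrg1, all of which were also lower outside. Anxa2, a membrane-binding protein, stood at 558 and 187 CPM inside and 445 and 145 CPM outside.

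The genes whose levels followed each of the 10 most closely over clusters were ranked by Pearson correlation of log2(CPM + 1), over the 10 T-like clusters in each of the 2 libraries (20 points, 6005 genes). The points share 2 libraries and the clusters differ in depth, so the values are descriptions. Sostdc1 was followed by Akr1c18 (0.97) and Fgf2 (0.92), and Il21 by Endod1 and Akr1c18 (both 0.95). Cxcr5 was followed by Slc22a15 and Tspan5 (both 0.92), Bcl6 by Tspan5 (0.91) and Bzw2 (0.90), and Pdcd1 by Tspan5 (0.94) and Stx11 (0.93). Tox2 was followed by Stx11 (0.96) and Gnas (0.95), Tox by Prkca (0.96) and Ptpn11 (0.95), Cd200 by Cd81 and Endod1 (both 0.95), and Sh2d1a by Cd160 (0.93) and Serpinb6b (0.92). Within the list, Pdcd1 and Tox2 (0.95) and Il21 and Sostdc1 (0.95) were each other's nearest, as were Cxcr5 and Bcl6 (0.91). Ascl2 had too few UMIs to be ranked.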

How the data were processed

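The deposited files hold UMI counts per cell and gene, made by the authors with the BD whole transcriptome pipeline 1.9.1, GRCm38 and GENCODE M19, per the file headers, with no further normalization. The headers were followed, although the series' design text gives pipeline 2.0 (with Seurat 4.04) and GRCm39 stands in the submitters' processing notes. Per the labels' protocols, CD3+CD5+ cells were sorted, captured with BD Rhapsody, and each group carried a sample tag. Gene locations came from GENCODE M21 (GRCm38).

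From these counts, cells were kept from 200 genes and up to 25% mitochondrial counts (28 and 11 removed). They were clustered with scanpy 1.11.5 (2000 variable genes, 30 components, 15 neighbours, Leiden resolution 0.8) without the 10 genes, receptor segments, mitochondrial, ribosomal and sex-linked genes and Ptprc. A cluster took a name from at least 3 markers with log2 fold of at least 1 and a UMI in at least 10% of its cells, unless its leading genes went against the name. Scrublet (rate 6%) marked 0 cells, so doublet calling did not work. Names rebuilt this way may differ from the authors'. Of 11 clusters, 7 stayed unnamed.

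UMIs were summed per library and group of cells, and CPM computed. Intervals were exact Poisson (levels), exact conditional binomial (ratios) and Clopper-Pearson (shares), at 95%; PCR and capture differences are not covered. A floor of 3 counts stands for 0. Genes entered a comparison with at least 20 UMIs over the groups compared, and 1.5-fold was the size counted. The interval code was tested on simulated counts. Thinning used 1 random draw.

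The 10 genes, the lists and the tests were chosen with earlier results of these data known. Named genes are all 10; the 10 highest and 6 lowest inside the class with at least 20 CPM; the 6 highest and 6 lowest between libraries inside the class with at least 50 CPM; up to 4 per list by size, with at least 20 CPM; and the 2 with the closest pattern. The rankings left out unnamed and sex-linked genes, receptor segments, and immunoglobulin, haemoglobin, ribosomal and mitochondrial genes. Gene symbols given only as higher or lower in a list, and Prdm1, Foxp3, Gata3, Icos and the Trdc cells, were chosen after their values were seen. The B cell markers at 0 inside the CD45-KO class are not reported here.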

Additional observations from a re-analysis of the deposited data

Results flagged for a closer look

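For 3 of the 10 genes the libraries differed in opposite directions inside and outside the cells with 2 or more of the other genes. Pdcd1 had a log2 ratio, CD45-KO over LatY136F, of 0.85 inside and -0.83 outside. Tox2 had 0.61 inside and -1.60 outside, and Sh2d1a 0.71 inside and -0.25 outside. With 1 library per genotype the difference between inside and outside was not tested.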

How the results depend on the processing

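No paired analysis was possible because each genotype has 1 library. The count of genes 1.5-fold higher over T-like cells, 3, became 6 with at most 10% mitochondrial counts and 1 at 2-fold, and stayed at 2 or 3 in the other settings; the count lower was 0 in all of them. Of 90 ratios of single genes under other settings, 73 stayed within counting error and 4 changed sign. With at most 10% mitochondrial counts Tox2 was 0.024, Pdcd1 0.26 and Sh2d1a 0.092, and without shared cell indices Pdcd1 was 0.0075; the starting intervals of Pdcd1 and Sh2d1a included 0. Sostdc1 ranged from 0.73 (cluster mix held equal) to 1.57, and Cxcr5 from 0.58 to 1.45. The fold of 1.22 in the share of cells with 2 or more genes became 1.55 at 500 UMIs, 1.65 for 3 or more genes, 1.63 for Cxcr5, Bcl6, Il21, Sostdc1, Ascl2 and Tox2 alone, 1.58 with at most 10% mitochondrial counts, 0.79 without thinning and, chosen after seeing the data, 0.89 without thinning and without the proliferating-like cluster; it was 1.13 at 1500 UMIs, 1.15 without the 2% of cells with the most UMIs and 1.18 without Il21, with intervals that included 1. With thinning, LatY136F list medians inside over outside moved from 0.87 to 1.92 for the further Tfh genes and from 1.56 to 0.25 for cell cycle genes. In CD45-KO cells they moved from 2.19 to 1.01 for cell cycle genes and from 1.27 to 1.88 for exhaustion genes. With 3 or more genes, Bcl6-repressed genes moved from -1.09 to -1.74 (CD45-KO). Of all genes, 7.85% and 9.22% higher and lower became 21.2% and 17.9% with no count minimum, and 4.66% higher at 100 counts. The causes were not tested. Depth limits Ascl2 most, with 52 and 59 UMIs.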
